A study of Homo sapiens with 8 samples.

Results

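Kinesins are motor proteins that walk along microtubules or shorten them. The 42 genes described here are all those whose symbol is KIF with a number and an optional letter A to C, or KIFC1 to KIFC3, among the 58302 genes of each file. By their known main role, 14 were placed with the mitotic kinesins, 14 with the transport kinesins, 7 with kinesins of cilia and Hedgehog signalling, and 7 in a remaining class. CENPE, a mitotic kinesin with another kind of symbol, falls outside the rule and is given with the partner genes. Of the 42 members, 37 had enough reads to be tested. The 5 others were KIF2B and KIF4B of the mitotic class, KIF6 and KIF19 of the ciliary class, and KIF25 of the remaining class. None of these exceeded 0.293 CPM (counts scaled to library size) in any library.

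The libraries came from A549, an established human lung adenocarcinoma cell line, in 4 groups of 2 that the submitters call biological replicates. The groups were control cells, cells given TP-0903 at 40 nM (an AXL inhibitor), cells with a control short hairpin RNA (shRNA) and cells with an shRNA against AXL, a receptor tyrosine kinase, and the series asked which pathways could let lung cancer cells resist TP-0903. The time on drug, the treatment of the control cells and the hairpin sequences are not stated. Titles also hold a P number that the labels do not explain: the control and TP-0903 libraries are P17 and P4, and those of both shRNA groups are P15 and P3. Below, values of a group stand in the order P17 then P4, or P15 then P3.

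Mitotic kinesins build and move the spindle, align the chromosomes and cut the daughter cells apart, and their transcripts are known to peak around the G2 and M phases of the cell cycle. Transport kinesins carry vesicles, organelles and protein complexes through the cytoplasm in dividing and resting cells alike. Because the samples are bulk RNA, fewer cells in division and less kinesin RNA per cell cannot be told apart.

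Totals ran from 30067011 to 44217023 expected counts per library. All 11 epithelial and A549 markers checked stood above 1 TPM in every library, and their summed level was highest with the AXL shRNA (42200 and 37852 TPM against 28296 and 22912 TPM with the control shRNA). Of 12 markers of other cell types, 1 to 5 per library stood above 1 TPM and 2 to 6 were at 0. Their summed level was 21.5 and 23.4 TPM with the AXL shRNA against 11.7 and 10.7 TPM with the control shRNA. The targeted gene AXL stood at 85.1 and 139.5 CPM with the control shRNA and at 55.4 and 63.0 CPM with the AXL shRNA, a log2 fold change of -0.92 ± 0.41 (SE) with an adjusted p of 0.12. With the P number as a block that p was 8.58e-04. The part of marker levels or of the size of the knockdown in the kinesin results was not tested.

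The letters of the promoters are shown because many members moved together. Genes of late cell cycle are known to carry a cell cycle genes homology region, a short element bound by the LIN54 protein of the DREAM and B-MYB complexes, often just downstream of a CCAAT box bound by NF-Y. Promoters of 300 bases (250 before the start and 50 from the start on) came from RefSeq, build GRCh38.p14, and 34 of the 42 members matched by symbol. KIF13B, KIF19, KIF21B, KIF26B, KIF27, KIF5A, KIFC2 and KIFC3 have no entry there. The letters TTTGAA, searched on both strands (TTCAAA on the other), stood in promoters of 10 of 14 mitotic kinesins (71.4%), in 1 of 10 transport kinesins with an entry (KIF5B), in 0 of 5 ciliary and in 0 of 5 remaining ones. Among all 27305 genes of the table, 18.2% held these letters. CCAAT (or ATTGG) stood in 11 of 14 mitotic kinesins against 39.7% of all genes, and both motifs stood in 9 of 14 (64.3%) against 7.26%. The 14 include KIF2B and KIF4B, which had too few reads to be tested. KIF4B holds both motifs and, as a copy of KIF4A, is not a match independent of it. The E2F letters TTTCGCGC, on either strand, stood in none of the 34 members with an entry and in 0.630% of all genes. None of the motifs contains another, and each was counted separately.

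The windows below belong to a selection of members whose values follow, to KIF4B as the copy of KIF4A, and to the 1 transport kinesin with a match. They hold 12 bases on each side of the match, 5′ to 3′ on the strand of the gene, with capitals marking the match to TTTGAA or TTCAAA. KIF15, KIF18A and KIF20B also hold such matches, and their windows are not shown. The KIF11 window is at chr10:92593090-92593119 (plus strand), KIF23 at chr15:69414282-69414311 (plus), KIF18B at chr17:44947754-44947783 (minus), KIF14 at chr1:200620733-200620762 (minus), KIFC1 at chr6:33391815-33391844 (plus), KIF4A at chrX:70290058-70290087 (plus), KIF4B at chr5:155013746-155013775 (plus) and KIF5B at chr10:32056548-32056577 (minus).
KIF11: ctctgtctctttTTCAAAttgaggcgccga
KIF23: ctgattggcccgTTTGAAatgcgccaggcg
KIF18B: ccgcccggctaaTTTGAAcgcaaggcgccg
KIF14: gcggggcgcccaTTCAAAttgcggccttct
KIFC1: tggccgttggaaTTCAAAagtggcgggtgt
KIF4A: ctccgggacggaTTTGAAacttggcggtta
KIF4B: ctctgggagggaTTTGAAacttggcggtta
KIF5B: agtgcagtaaaaTTTGAAtctgcgaccccg
In the mitotic kinesins the first base of the match lay between 55 bases before the start (KIF23) and 31 bases after it (KIF20B), while in KIF5B it lay 140 bases before the start. KIF20A, KIF22, KIF2B and KIF2C hold no such letters in this window. KIF20A and KIF22 do hold CCAAT-box letters, shown next with capitals on ATTGG, for KIF20A at chr5:138179033-138179061 (plus) and for KIF22 at chr16:29790673-29790701 (plus).
KIF20A: cttccctatctgATTGGccgaacgaacgc
KIF22: cgcgtagtcttgATTGGtggaacctggga
A match describes the letters only. It was not tested whether any protein bound there.

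**Figure D1:**
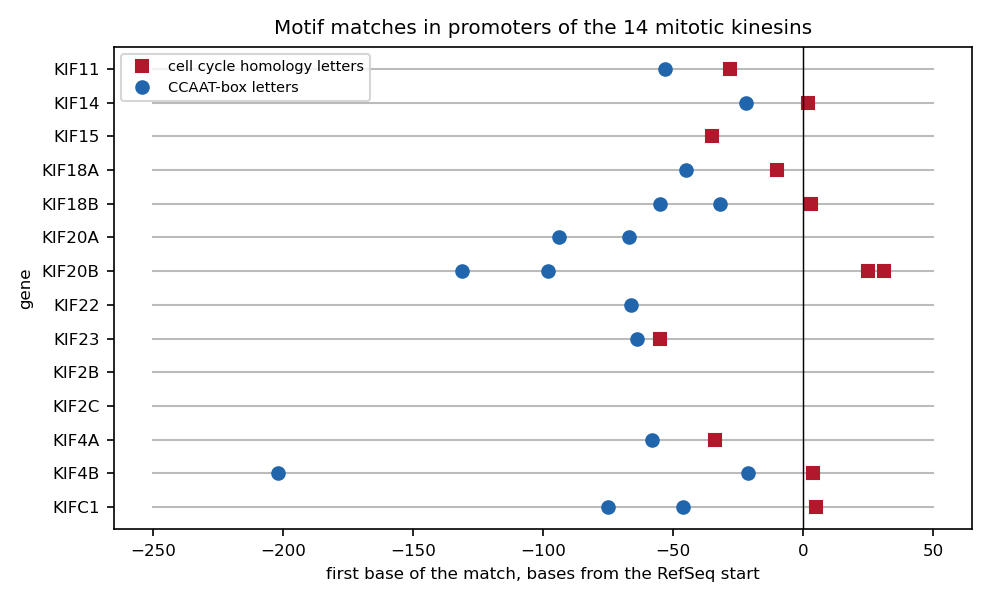
Position of motif matches in the RefSeq promoters of the 14 mitotic kinesins. The x axis gives the first base of a match in bases from the RefSeq start, squares mark the cell cycle homology letters, which lie between -55 and 31, and circles mark CCAAT-box letters, which lie upstream of the start in all 11 promoters that hold them.

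With TP-0903, every mitotic kinesin tested was lower than in the control cells. All 12 fell past the threshold (an adjusted p under 0.05 in edgeR's quasi-likelihood test, with Benjamini-Hochberg adjustment over all 17676 genes tested), where 6.35% of all tested genes fell. Their log2 fold changes ran from -3.28 (KIF15) to -1.88 (KIF23), with a median of -2.81 beside -0.02 over all tested genes. The classes were set by known role, with earlier results of these data known. KIF2A, which also works at spindle poles, was placed in the remaining class and did not pass in edgeR (-0.18, adjusted p 0.269). Of the 14 transport kinesins none fell and 1 rose, where 4.90% of all genes rose, and their median was 0.13 (an unadjusted p under 0.05 was reached by 3 higher and 2 lower ones, and DESeq2 called 2 higher and 1 lower). With the P number as a block, 3 transport kinesins rose (KIF3A, KIF1C and KIFC2) and 3 fell (KIF13B, KIF1A and KIFC3). The share of all genes that passed with the block is not given here, so these blocked counts cannot be read against the shares without it. Over the whole family 15 of 37 members passed, which is 40.5% beside 11.3% of all tested genes. Summed over their 14 genes, mitotic kinesins stood at 450.0 and 323.7 TPM (a level scaled for transcript length) in control cells and at 79.6 and 62.7 TPM with TP-0903. The transport sum was 497 and 468 TPM in control cells and 502 and 471 TPM with the drug. Mitotic genes thus made up 43.0% and 36.0% of all kinesin TPM in control cells and 11.8% and 9.85% with TP-0903.

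**Figure D2:**
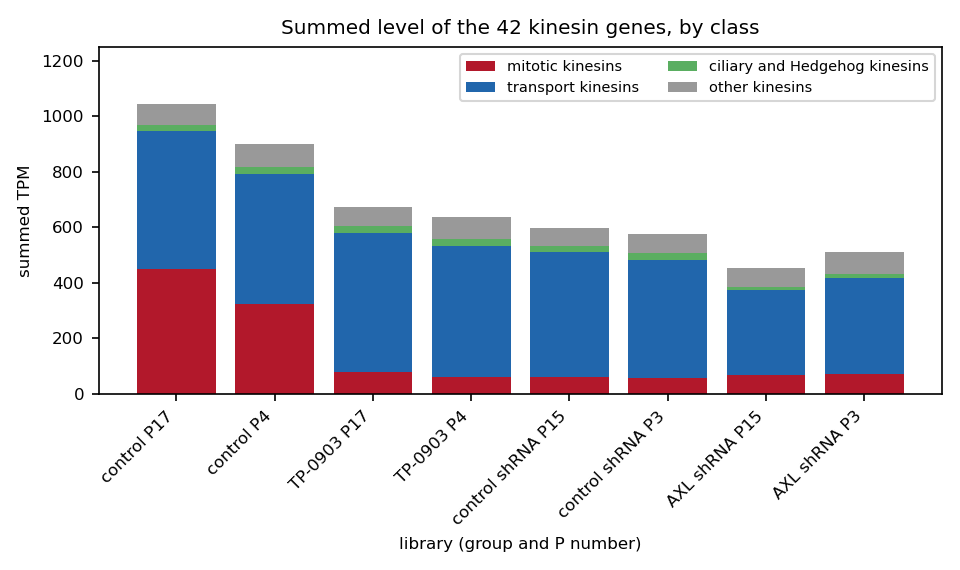
Summed TPM of the 42 kinesin genes in each library, stacked by class. The mitotic share (bottom, red) is 450.0 and 323.7 TPM in the control libraries and between 59.3 and 79.6 TPM in the 6 others, while the summed transport level is lowest with the AXL shRNA (307 and 344 TPM). For the AXL shRNA against the control shRNA, the median change of all genes on log2(TPM + 1) was itself -0.15.

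Cells with the control shRNA also had low mitotic kinesins. Against the control cells, all 12 fell past the threshold (6.09% of all genes fell, 3.06% rose and 9.15% passed in either direction), from -4.37 (KIF20A) to -1.96 (KIF22) with a median of -3.10, and 0 of 14 transport kinesins passed in edgeR (an unadjusted p under 0.05 was reached by 3 higher and 2 lower members, while DESeq2 called 1 higher and 1 lower, and limma-voom 1 higher). This comparison uses the same 2 control libraries as the drug comparison. The shRNA groups share no P number with the control cells, so the hairpin, the P number and the handling cannot be told apart here. The summed mitotic level was 62.1 and 59.3 TPM with the control shRNA and 67.1 and 73.2 TPM with the AXL shRNA. In all 12 tested mitotic kinesins the lower of both control libraries lay above the highest of the 6 other libraries. The control libraries differed between themselves too, the P17 library lying above the P4 library in each of the 12. The shares of all tested genes with either pattern are not given here, so these counts cannot be read against a background. Without the P17 control library the median drug effect was -2.44, and without the P4 control library it was -3.10.

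**Figure D3:**
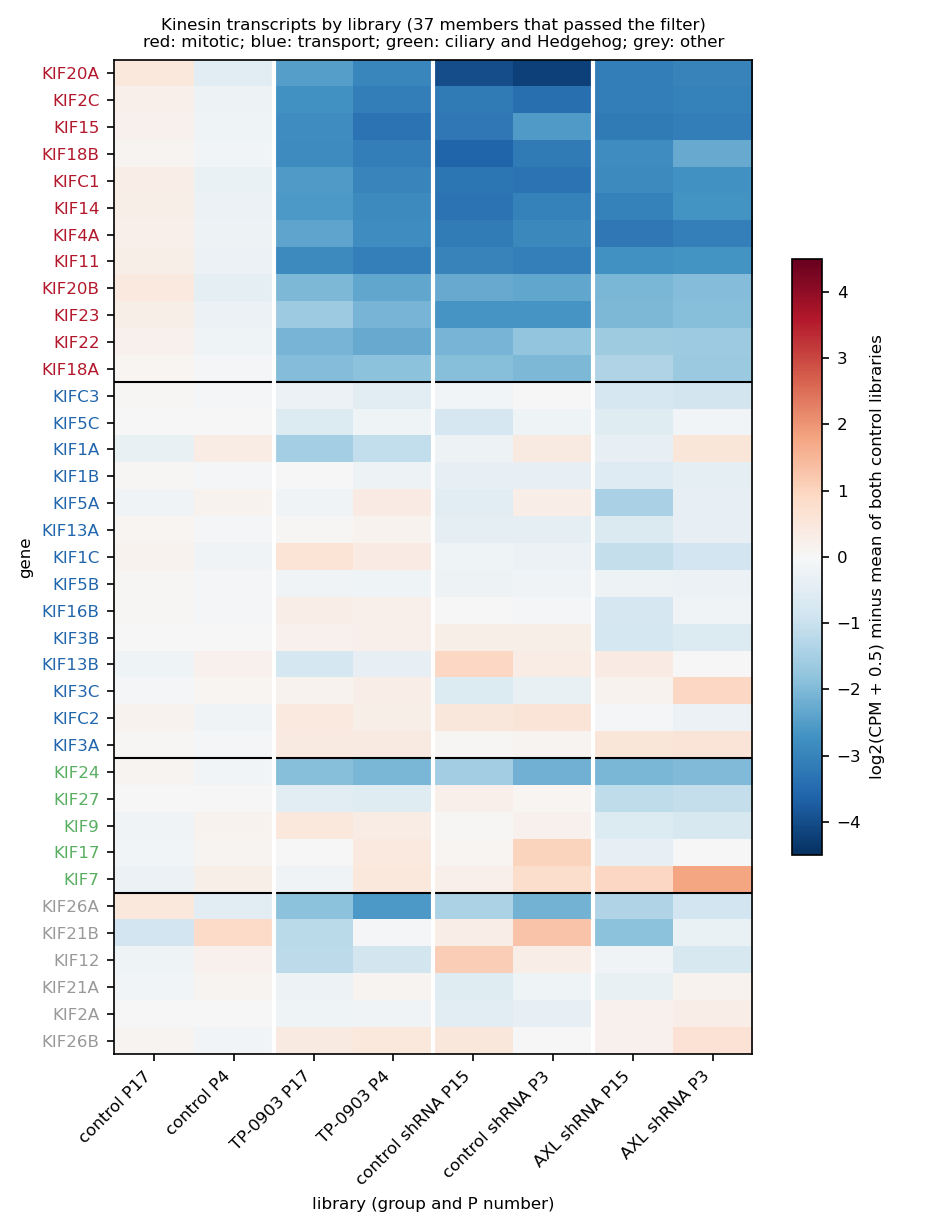
Level of the 37 tested kinesins in each library as log2(CPM + 0.5) minus the mean of both control libraries, rows grouped by class and columns by group and P number. The mitotic rows (top) are blue in the 6 libraries outside the control group. The transport rows have medians of -0.56 and -0.27 in the AXL shRNA libraries, beside -0.20 and -0.06 in the control shRNA libraries.

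The motors of spindle assembly had large falls. KIF11 (Eg5; GRCh38 chr10:92593286-92655395, plus strand), which pushes the spindle poles apart, stood at 151 and 104 CPM in control cells, 16.8 and 14.4 CPM with TP-0903, 15.3 and 14.6 CPM with the control shRNA and 18.8 and 18.9 CPM with the AXL shRNA. Its fall with TP-0903 was 8.19-fold (log2 fold change -3.03 ± 0.19, adjusted p = 4.70e-04), and the drug libraries held 11.1% and 13.8% of the control level of the same P number. KIF15, which can keep a bipolar spindle when KIF11 is inhibited, had 26.9 and 20.5 CPM in control cells and 2.99 and 1.88 CPM with TP-0903, a log2 fold change of -3.28 ± 0.35. It lay at 2.06 and 3.59 CPM with the control shRNA and at 2.17 and 2.28 CPM with the AXL shRNA. KIFC1 (HSET), a minus-end motor that focuses the poles and clusters extra centrosomes, stood at 47.6 and 31.4 CPM in control cells, 6.27 and 4.54 CPM with TP-0903, 3.66 and 3.41 CPM with the control shRNA and 4.83 and 5.38 CPM with the AXL shRNA. For all 3 motors both control libraries lay above the 6 others.

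The motors of chromosome alignment and microtubule length fell by different amounts. KIF2C (MCAK), which shortens microtubules at centromeres, had 54.0 and 38.7 CPM in control cells, 6.48 and 4.86 CPM with TP-0903, 4.58 and 3.86 CPM with the control shRNA and 4.89 and 5.09 CPM with the AXL shRNA, and its drug effect was -3.03 ± 0.23. KIF18B, which works with KIF2C on astral microtubules, had 64.7 and 53.9 CPM in control cells, 7.84 and 6.42 CPM with TP-0903, 4.40 and 6.11 CPM with the control shRNA and 8.12 and 11.9 CPM with the AXL shRNA. KIF18A, which damps the swings of chromosomes at the metaphase plate, kept more of its level: 59.7 and 53.1 CPM in control cells, 14.2 and 15.1 CPM with TP-0903, 14.7 and 13.5 CPM with the control shRNA and 21.7 and 17.5 CPM with the AXL shRNA. Its drug effect of -1.94 ± 0.15 was the next smallest of the class after KIF23. The chromokinesin KIF22 (Kid), which pushes chromosome arms outward, had 90.1 and 69.9 CPM in control cells, 18.4 and 16.0 CPM with TP-0903, 18.3 and 22.9 CPM with the control shRNA and 25.7 and 25.3 CPM with the AXL shRNA. The chromokinesin KIF4A, which limits microtubule growth in the central spindle, had 90.9 and 65.5 CPM in control cells, 14.5 and 10.6 CPM with TP-0903, 8.30 and 9.82 CPM with the control shRNA and 7.76 and 8.73 CPM with the AXL shRNA. Its intronless copy KIF4B stayed at or under 0.124 CPM in all libraries, and reads of the copies may be shared between them.

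The 4 motors of cytokinesis complete the class. KIF20A (MKLP2; chr5:138178719-138187715, plus strand), which brings Aurora B to the central spindle, stood at 86.1 and 44.9 CPM in control cells, 10.8 and 7.70 CPM with TP-0903, 3.41 and 2.90 CPM with the control shRNA and 6.79 and 7.37 CPM with the AXL shRNA. It had the largest fall of the class in the control shRNA cells (20.7-fold, log2 fold change -4.37 ± 0.35, adjusted p = 8.93e-04). KIF20A overlaps BRD8 and CDC23 on the opposite strand, and no strand is stated for these libraries, so reads of the overlap cannot be told apart. KIF23 (MKLP1), a centralspindlin subunit needed for the midbody, had the smallest fall with the drug: 184 and 125 CPM in control cells, 49.0 and 35.0 CPM with TP-0903, 23.8 and 23.8 CPM with the control shRNA and 37.3 and 40.1 CPM with the AXL shRNA. KIF14, which recruits citron kinase to the midbody, had 88.7 and 60.5 CPM in control cells, 11.8 and 9.58 CPM with TP-0903, 6.80 and 8.53 CPM with the control shRNA and 8.48 and 11.01 CPM with the AXL shRNA. KIF20B had 76.7 and 41.9 CPM in control cells, 13.8 and 10.7 CPM with TP-0903, 11.4 and 10.9 CPM with the control shRNA and 13.4 and 14.1 CPM with the AXL shRNA, and its drug and control shRNA effects were -2.28 ± 0.28 and -2.41 ± 0.28. Each of these 4 was highest in the control cells. KIF2B, a paralog of KIF2C, had no read in any library. All 12 falls in either comparison kept their call in every setting run.

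**Figure D4:**
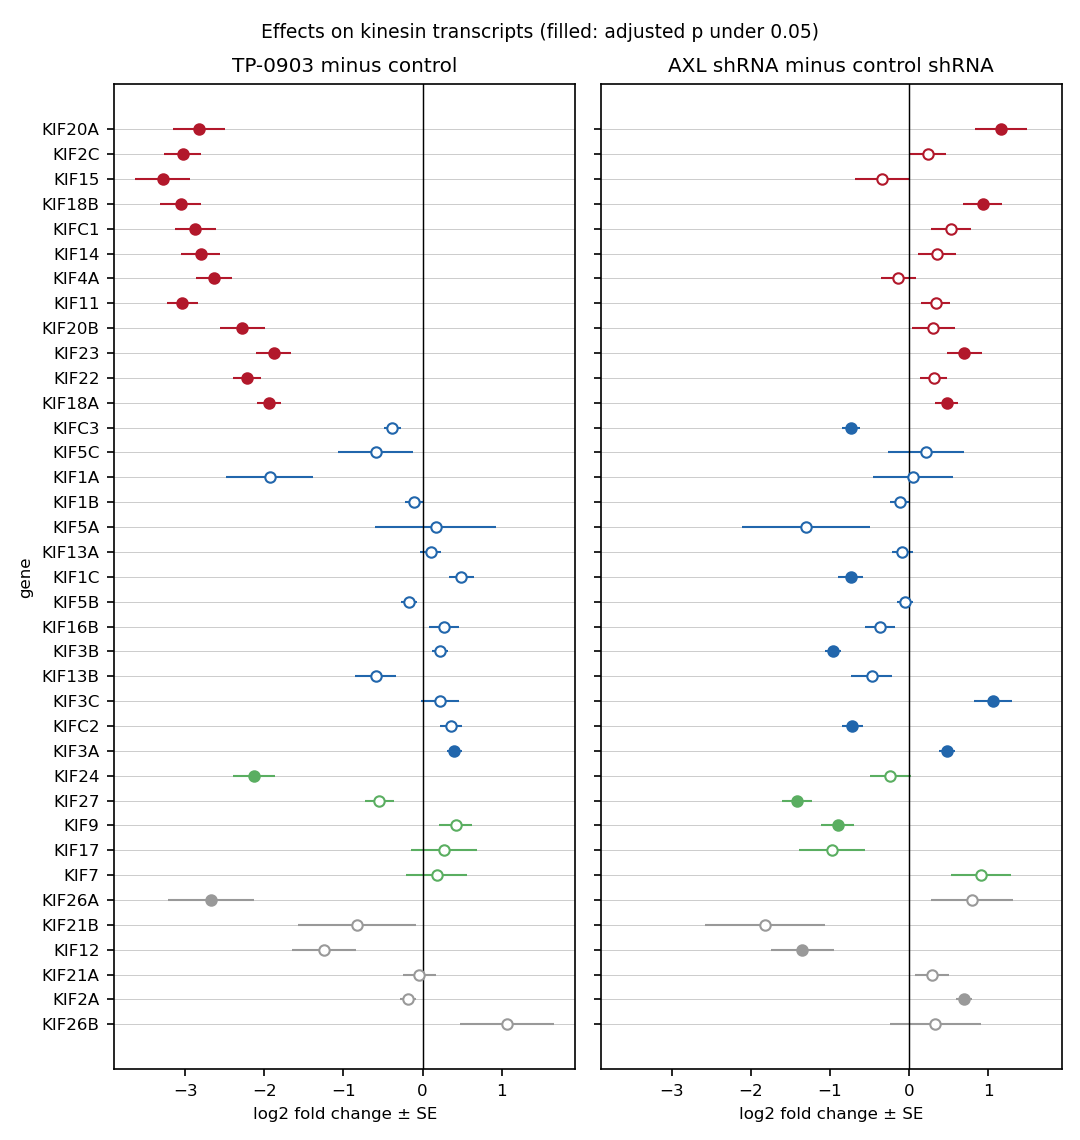
Log2 fold change ± SE of the 37 tested kinesins for TP-0903 against control (left) and for the AXL shRNA against the control shRNA (right), filled where the adjusted p was under 0.05. All 12 mitotic kinesins (red) lie at or below -1.88 on the left and between -0.34 and 1.17 on the right.

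Against the control shRNA, the AXL shRNA changed the family in both directions. The 2 control shRNA libraries also serve in the comparison above. Of the 37 tested members 14 passed the threshold, 7 higher and 7 lower, which is 37.8% beside 37.5% of all tested genes, a share near the background. Of the 12 mitotic kinesins 4 rose and none fell (18.5% of all genes rose and 19.0% fell), and the median was 0.34 beside -0.01 over all genes (DESeq2 called the same numbers, limma-voom 1 higher and 0 lower, and no mitotic member was lower at an unadjusted p under 0.05). KIF20A rose by 1.17 ± 0.33 on the log2 scale (adjusted p = 0.0284), KIF18B by 0.93 ± 0.25 (0.0228), KIF23 by 0.70 ± 0.22 (0.0392) and KIF18A by 0.47 ± 0.15 (0.0406). In each of these 4 both AXL shRNA libraries lay above both control shRNA libraries, yet all 4 remained far under the control cells. The share of all tested genes separated in this way is not given here. None of the 4 calls held without the P15 control shRNA library (adjusted p 0.0810 for KIF20A, 0.113 for KIF18B, 0.126 for KIF23 and 0.0846 for KIF18A), nor on log2 TPM, a scale on which the median of all genes was itself -0.15. The calls of KIF20A and KIF23 were also lost without each of the 3 other shRNA libraries (0.0696 to 0.126 and 0.0873 to 0.133), that of KIF18B without the P3 AXL shRNA library (0.117), and that of KIF18A without any library but the P3 AXL shRNA one (0.0596 to 0.187). With the P number as a block, 22 members passed in place of 14, where 51.7% of all genes passed, and KIF11 and KIFC1 rose too (adjusted p 0.0399 and 0.0215).

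Within the transport class the AXL shRNA lowered 4 of 14 members and raised 2, a share of 42.9% near the 37.5% of all tested genes, and the transport sum was 307 and 344 TPM beside 450.3 and 422 TPM with the control shRNA. On log2(TPM + 1) the median change of all genes was itself -0.15 in this comparison, beside -0.29 for the transport class. In edgeR these medians were -0.01 and -0.24. The heterotrimeric kinesin-2 motor, which carries cargo in cilia and on membranes, is built of KIF3A, KIF3B and the adaptor KIFAP3, and KIF3C can take the place of KIF3B. KIF3B (chr20:32277664-32335011, plus strand) stood at 126 and 128 CPM with the control shRNA, 61.4 and 68.5 CPM with the AXL shRNA, 104 and 108 CPM in control cells and 122 and 125 CPM with TP-0903. Its log2 fold change with the AXL shRNA was -0.97 ± 0.10 (adjusted p = 8.04e-04), the smallest p of the family in this comparison, and both libraries were below all 6 others. KIF3A (chr5:132692628-132737638, minus strand) moved the other way, at 35.6 and 37.4 CPM with the control shRNA and 50.6 and 51.2 CPM with the AXL shRNA (0.48 ± 0.10, adjusted p = 0.00872, lost on log2 TPM at 0.0870). It stood at 35.9 and 33.0 CPM in control cells and at 45.8 and 45.2 CPM with TP-0903.

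KIF3C also rose with the AXL shRNA, from 88.4 and 106.7 CPM to 150.5 and 255 CPM (1.06 ± 0.24, adjusted p = 0.0127), beside 127 and 143 CPM in control cells and 149 and 166 CPM with TP-0903. The P3 library of the AXL shRNA was the highest of all, and without the P15 control shRNA library the adjusted p was 0.0725. As a ratio of TPM, KIF3B to KIF3A was 2.82 and 2.99 with the control shRNA, 0.892 and 0.965 with the AXL shRNA, 1.96 and 2.58 in control cells and 1.84 and 1.81 with TP-0903. KIF3C to KIF3B was 0.920 and 1.13 with the control shRNA and 3.47 and 5.28 with the AXL shRNA. These ratios describe levels of RNA per length and were given no test. KIFAP3 had 22.5 and 20.6 CPM with the control shRNA, 13.1 and 18.2 CPM with the AXL shRNA, 24.0 and 21.5 CPM in control cells and 38.2 and 29.5 CPM with TP-0903, and neither change passed in edgeR (adjusted p 0.111 and 0.109), while both passed with the block (0.0354 and 0.0290).

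**Figure D5:**
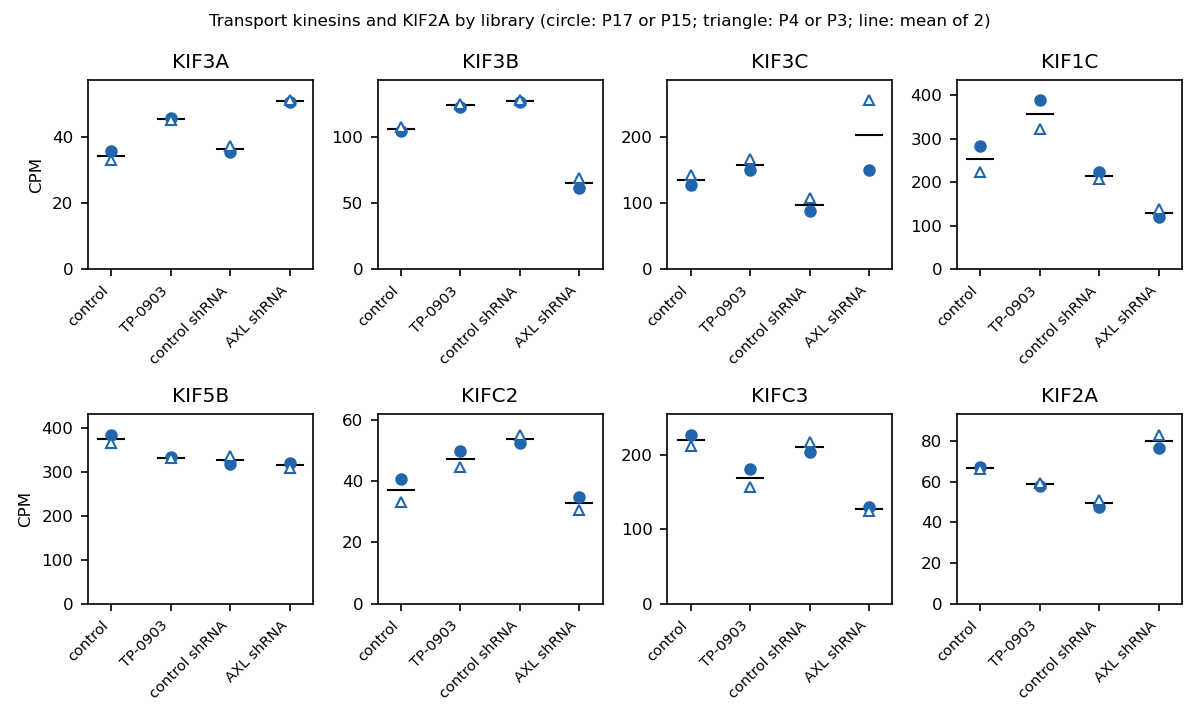
CPM of 7 transport kinesins and KIF2A in each library by group, with the horizontal line at the mean of 2 libraries and the axis from 0. KIF3B lies between 61.4 and 68.5 CPM with the AXL shRNA and above 100 CPM in the 6 other libraries, while KIF5B stays between 309 and 385 CPM.

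KIF1C (chr17:4997948-5028401, plus strand), a kinesin-3 that carries dense-core vesicles and integrins, stood at 222 and 208 CPM with the control shRNA, 120.2 and 137 CPM with the AXL shRNA, 282 and 224 CPM in control cells and 388 and 323 CPM with TP-0903. It fell by 0.74 ± 0.16 on the log2 scale with the AXL shRNA (adjusted p = 0.00988, but 0.0584 without the P15 AXL shRNA library). With TP-0903 its change was 0.49 ± 0.16 with an adjusted p of 0.0895, which was 0.0122 with the block. The minus-end motor KIFC3 (chr16:57758217-57863053, minus strand), known at cell junctions and the Golgi, stood at 203 and 217 CPM with the control shRNA and 129 and 125 CPM with the AXL shRNA (-0.73 ± 0.11, adjusted p = 0.00316), beside 227 and 212 CPM in control cells and 181 and 157 CPM with TP-0903. With the block the drug change of KIFC3, -0.38 ± 0.11 (adjusted p = 0.0747), also passed (0.0246). KIFC2, a related minus-end motor on chromosome 8 that overlaps FOXH1 on the opposite strand, fell with the AXL shRNA from 52.4 and 55.1 CPM to 34.8 and 30.6 CPM (-0.72 ± 0.14, adjusted p = 0.00666). It stood at 40.6 and 33.2 CPM in control cells and at 49.9 and 44.7 CPM with TP-0903, a change that passed with the block (adjusted p 0.0408 against 0.138). KIF3B, KIFC2 and KIFC3 kept their falls with the AXL shRNA in every setting run.

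KIF5B, the widely expressed heavy chain of conventional kinesin, varied little between groups. It stood at 385 and 366 CPM in control cells, 334 and 331 CPM with TP-0903, 319 and 336 CPM with the control shRNA and 320.4 and 309 CPM with the AXL shRNA, and none of its 3 changes between groups passed in edgeR (log2 fold changes -0.18, -0.20 and -0.06). Its AXL shRNA change was -0.29 on log2(TPM + 1), with an adjusted p of 0.0323, a scale on which the median of all genes was -0.15. Its neuronal relatives KIF5A and KIF5C never exceeded 0.52 and 0.69 TPM, and KIF1A, the axonal carrier of synaptic vesicle precursors, never exceeded 0.92 TPM. KIF1B, KIF13A and KIF16B, which move mitochondria and endosomes, passed neither in the drug nor in the AXL shRNA comparison in edgeR. Over the 8 libraries they ran from 50.2 to 78.6, from 58.3 to 103.3 and from 26.0 to 54.9 CPM. KIF13B had 28.6 and 36.9 CPM in control cells and 18.5 and 25.0 CPM with TP-0903, and with the block it and KIF1A were lower under the drug (adjusted p 0.00533 and 0.00246 against 0.187 and 0.0659). With the block KIF13B and KIF5A were also lower with the AXL shRNA (0.00749 and 0.0267 against 0.187 and 0.244). With TP-0903 the only transport member past the threshold in edgeR was KIF3A (0.40 ± 0.10, adjusted p = 0.0423), and that call was lost without any single one of the 8 libraries, its adjusted p then lying between 0.0612 and 0.212.

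By level per length, KIFC3 led the family at a mean of 123.6 TPM over the 8 libraries, followed by KIF5B at 81.2 TPM, KIF1C at 61.9 TPM, KIF3C at 46.8 TPM and KIF2A at 36.9 TPM. KIFC3 held rank 1 in all 4 groups, and the order below it differed between them. With the AXL shRNA, KIF3C and KIF2A ranked 3 and 4 and KIF1C ranked 5, while KIF2A ranked 7 in control and in control shRNA cells. In the AXL shRNA libraries KIF3C, at 43.3 and 74.8 TPM, overlapped KIF5B at rank 2 (67.8 and 67.1 TPM) and KIF2A (38.5 and 44.8 TPM). In control cells the mitotic KIF23 and KIF22 ranked 3 and 5 of 42, at means of 82.4 ± 21.1 and 66.2 ± 9.3 TPM (SD, n = 2). KIF23, at 97.3 and 67.4 TPM in its control libraries, overlapped its neighbours KIF5B (95.4 and 91.4 TPM) and KIF1C (78.2 and 66.5 TPM), so its place in the order lies within its spread, while KIF5B lay above KIF1C in both libraries. KIF22, at 72.8 and 59.7 TPM in the control libraries, also overlapped KIF1C and KIF23. With TP-0903 KIF23 and KIF22 ranked 10 and 14. KIF1C and KIF5B, at 100.9 and 85.4 TPM and at 81.4 and 80.5 TPM under the drug, held ranks 2 and 3 there, and their libraries did not overlap.

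Among the ciliary and Hedgehog kinesins, KIF24 was the member that fell in both comparisons with the control cells. It is a microtubule-shortening motor of the centriole that holds back cilia in cycling cells. KIF24 fell with TP-0903 from 17.2 and 14.1 CPM to 3.77 and 3.37 CPM (-2.13 ± 0.26, adjusted p = 0.00354), and it was also lower with the control shRNA, at 4.98 and 3.11 CPM (-1.95 ± 0.26, adjusted p = 0.00613, but 0.0559 without the P17 control library). With the AXL shRNA it stood at 3.32 and 3.54 CPM. KIF27 (chr9:83836698-83921465, minus strand), a paralog of the Hedgehog regulator KIF7, fell with the AXL shRNA from 8.18 and 7.36 CPM to 2.81 and 3.01 CPM (-1.42 ± 0.19, adjusted p = 0.00169), beside 6.93 and 6.84 CPM in control cells and 4.88 and 4.54 CPM with TP-0903. KIF9, a motor of motile cilia that overlaps KLHL18 and its own antisense gene, fell from 5.44 and 6.08 CPM to 3.20 and 2.96 CPM (-0.90 ± 0.21, adjusted p = 0.0146, but 0.0642 without the P3 control shRNA library and 0.0691 without the P3 AXL shRNA library), beside 4.63 and 5.85 CPM in control cells and 7.35 and 6.65 CPM with TP-0903. KIF7 had 8.64 and 13.0 CPM with the control shRNA and 14.3 and 26.1 CPM with the AXL shRNA, which passed with the block (adjusted p 0.0014 against 0.0993). KIF17, an accessory motor of cilia, stayed between 1.33 and 4.28 CPM, and with the block its AXL shRNA change of -0.98 passed (adjusted p 0.0218 against 0.107).

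In the remaining class, KIF2A, which shortens microtubules at spindle poles and in neurons, stood at 47.7 and 51.1 CPM with the control shRNA, 76.7 and 83.1 CPM with the AXL shRNA, 67.3 and 66.0 CPM in control cells and 58.0 and 59.5 CPM with TP-0903. Its rise with the AXL shRNA was 0.69 ± 0.10 on the log2 scale (adjusted p = 0.00213) and held in every setting run. Its fall in the control shRNA cells, -0.43 ± 0.10 with an adjusted p of 0.0378, was lost without any single one of the 8 libraries (0.0537 to 0.201). KIF2A overlaps IPO11 on the same strand and DIMT1 on the other. KIF12, known in kidney, liver and pancreas epithelium, fell with the AXL shRNA from 7.69 and 4.22 CPM to 2.87 and 1.82 CPM (adjusted p = 0.0321, but 0.172 without the P15 control shRNA library and 0.151 without the P3 AXL shRNA library), beside 2.81 and 3.87 CPM in control cells and 1.17 and 1.64 CPM with TP-0903. With the block KIF12 was lower under the drug too (0.00602 against 0.0927). KIF26A, an atypical kinesin without motor activity, had 10.4 and 5.03 CPM in control cells and 1.64 and 0.791 CPM with TP-0903, beside 2.43 and 1.26 CPM with the control shRNA and 2.57 and 3.81 CPM with the AXL shRNA. It fell with the drug (-2.67 ± 0.54, adjusted p = 0.0226), and the call was lost without the P17 control library (0.117), the P17 drug library (0.0734) or the P4 drug library (0.101). In the control shRNA cells its change was -2.06 ± 0.53 (adjusted p = 0.0529 in edgeR and 0.00217 in DESeq2). The level of KIF21B differed with the P number: in each of the 4 groups the P3 or P4 library was the higher, at 29.1 against 14.8 CPM with the control shRNA, 9.41 against 2.96 CPM with the AXL shRNA, 21.6 against 6.33 CPM in control cells and 10.96 against 4.78 CPM with TP-0903. KIF21B was not alone in this: the P3 or P4 library was also the higher in every group for KIF1A, KIF3B, KIF3C, KIF5A, KIF7, KIF17 and KIF21A. Some of these differences were small, as for KIF3B at 127.7 against 126.2 CPM with the control shRNA. The share of all tested genes with this pattern is not given here. With the block KIF21B was lower with the AXL shRNA (adjusted p 1.41e-04 against 0.0991) and with the drug (0.0351 against 0.520). KIF21A (63.4 to 102.1 CPM) and KIF26B (0.174 to 0.655 CPM) passed in no edgeR comparison of 2 groups without the block, and with it KIF21A passed for the AXL shRNA (0.0403).

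The drug and hairpin effects were set against each other as a difference of differences, TP-0903 minus control less AXL shRNA minus control shRNA. Of the 37 members 19 passed, 15 lower and 4 higher, where 10.8% of all genes were lower, 9.82% higher and 20.6% either. The 15 were all 12 mitotic kinesins (-3.99 for KIF20A to -2.41 for KIF18A, median -3.05), KIF24, KIF26A and KIF2A. The 4 were KIF3B (1.19 ± 0.14), KIF1C (1.23 ± 0.22), KIFC2 (1.07 ± 0.19) and KIF9 (1.32 ± 0.30). With the block 7 more passed, KIF1A (adjusted p 0.00652), KIF3C (0.00949) and KIF7 (0.0314) lower and KIF21B (0.0127), KIF27 (0.0335), KIF17 (0.0426) and KIF16B (0.0455) higher. The shares of all genes above are those without the block, so the 7 added calls cannot be read against them. The mitotic kinesins of the control shRNA cells were already at 59.3 to 62.1 TPM in sum, beside 323.7 and 450.0 TPM in the control cells from which the drug effect was taken. Over all 4 groups at once, 28 of 37 members differed (49.2% of all genes did): 12 of 12 mitotic, 9 of 14 transport, 4 of 5 ciliary and 3 of 6 remaining ones.

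Genes that work with the kinesins were read from lists of their own. Their counts stand beside 6.35% of all tested genes lower and 4.90% higher with TP-0903, 6.09% lower and 3.06% higher in the control shRNA cells, and 19.0% lower and 18.5% higher (37.5% in all) with the AXL shRNA. Of 18 partners of mitotic kinesins, 16 fell with TP-0903 and 16 in the control shRNA cells, while with the AXL shRNA 7 rose and 2 fell (medians -2.36, -2.82 and 0.39). CENPE, the kinetochore kinesin, stood at 62.6 and 46.6 CPM in control cells, 9.91 and 9.75 CPM with TP-0903, 8.27 and 8.68 CPM with the control shRNA and 10.3 and 8.59 CPM with the AXL shRNA. TPX2, which targets KIF11 to the spindle, had 241 and 170.5 CPM in control cells, 51.7 and 39.9 CPM with TP-0903, 25.1 and 30.4 CPM with the control shRNA and 51.2 and 55.2 CPM with the AXL shRNA. PRC1, which bundles the central spindle with KIF4A, fell with TP-0903 from 266 and 194 CPM to 39.2 and 29.7 CPM and did not pass with the AXL shRNA (-0.03 ± 0.19). AURKA, a spindle kinase, rose with the AXL shRNA from 16.0 and 19.3 CPM to 44.4 and 49.7 CPM (adjusted p = 9.89e-04), whereas the pole protein NUMA1 fell from 193 and 176 CPM to 86.3 and 77.5 CPM (adjusted p = 5.77e-04).

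Of 14 regulators of mitotic transcription, 8 fell and 1 rose with TP-0903, 7 fell and 1 rose in the control shRNA cells, and 4 fell and 1 rose with the AXL shRNA (medians -0.86, -0.59 and -0.19). The 5 of 14 called with the AXL shRNA are near the share of all genes. FOXM1, an activator of late cell cycle genes, stood at 187 and 148 CPM in control cells, 46.1 and 29.8 CPM with TP-0903, 21.4 and 28.0 CPM with the control shRNA and 22.7 and 30.02 CPM with the AXL shRNA. MYBL2 (B-MYB) had 105.8 and 83.0 CPM in control cells and 8.83 and 7.24 CPM with TP-0903, and in the shRNA libraries it lay between 8.12 and 13.3 CPM. CDKN1A (p21), an inhibitor of cyclin-dependent kinases, rose with TP-0903 from 169 and 268 CPM to 636 and 602 CPM, and with the AXL shRNA from 308.5 and 440.3 CPM to 979 and 830 CPM (adjusted p 0.0115 and 0.00765). The drug call was lost without the P17 control library (0.0632) or the P17 drug library (0.0737).

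Of 15 cargo adaptors and accessory subunits, 4 rose and 4 fell with the AXL shRNA, 2 rose with TP-0903, and 3 rose and 1 fell in the control shRNA cells (medians 0.17, 0.39 and 0.21). KLC1, a light chain of conventional kinesin, stood at 91.5 and 88.3 CPM with the control shRNA, 172 and 179.6 CPM with the AXL shRNA, 91.0 and 82.0 CPM in control cells and 124 and 105.5 CPM with TP-0903. It rose with the AXL shRNA by 0.97 ± 0.12 on the log2 scale (adjusted p = 0.00131), while KIF5B, its heavy chain partner, did not pass. With the block KLC1 also rose with TP-0903 (adjusted p 0.0168 against 0.0666), and its difference of effects passed (0.0138 against 0.0531). The late endosome adaptor FYCO1 went from 37.9 and 36.8 CPM to 20.4 and 20.8 CPM with the AXL shRNA and from 24.4 and 27.9 CPM to 43.2 and 42.8 CPM with TP-0903, and the difference of both effects was 1.58 ± 0.16 (adjusted p = 0.00162). Its drug call was lost without the P17 control library (0.0659) or the P17 drug library (0.0722). Of 11 tubulins, 7 rose with the AXL shRNA, 7 fell in the control shRNA cells, and 2 rose and 1 fell with TP-0903 (medians 0.79, -1.17 and -0.20). TUBA1B fell in the control shRNA cells, standing at 2329 and 1735 CPM in control cells against 459 and 539 CPM. Of 20 tested genes of dynein and dynactin, the opposite motor, 5 rose and 3 fell with the AXL shRNA and 1 rose with TP-0903 (medians 0.10 and 0.17), both near the share of all genes, while 3 fell in the control shRNA cells (median -0.22). DYNC1H1, the dynein heavy chain, rose in both comparisons, from 357 and 453 CPM to 901 and 933 CPM with the AXL shRNA and from 476 and 513 CPM to 744 and 807 CPM with TP-0903 (log2 fold changes 1.18 ± 0.15 and 0.65 ± 0.14), and the latter call was lost without any of the 4 control and drug libraries or either AXL shRNA library (0.0516 to 0.160). With the block its difference of effects passed (0.0338 against 0.107).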

How the data were processed

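Each of the 8 A549 libraries had 1 deposited RSEM table of 58302 genes. Reads were aligned to GRCh38 with STAR (2.5.3a), per the submitters' processing notes, which name no RSEM version or annotation. The deposited expected counts are the authors' estimated reads per gene, not normalized. TPM values as deposited are scaled for length and depth, per the file headers. The deposited effective lengths (in bases) served as offsets in an alternative. Gene positions came from GENCODE 29.

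Expected counts were rounded, filtered with filterByExpr and scaled by TMM. All 8 libraries entered 1 edgeR (4.0.16) quasi-likelihood fit in R (4.3.3) with 1 term per group. Tests were two-sided with a threshold of 0.05 after Benjamini-Hochberg adjustment over all tested genes, and SE is the log2 fold change divided by the root of F. Scripts were tested on simulated data. A p measures the spread between these libraries only. Members and lists were chosen with earlier results of these data known.

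Values per library are given for up to 8 kinesins per direction and contrast with the smallest p past the threshold, for KIF11, KIF20A, KIF23, KIF2C, KIFC1, KIF5B, KIF1C, KIF3A, KIF3B, KIF2A, KIF22, KIF18A and KIF14, and for the 5 of highest TPM. Other lists name up to 3 genes by p, and CENPE, KLC1, KIFAP3, FOXM1 and TPX2. Further kinesins, such as KIF21B, were given values after these were seen.

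Deviations from group means correlated, across genes, at 0.558 (shRNA groups) and 0.626 (control and TP-0903) between libraries of the same P number, against 0.177 to 0.380 between groups that share none. The number was therefore taken to pair libraries, and a blocked value is printed where the call of a kinesin described differs. Alternatives were other scalings (DESeq2 size factors, upper quartile), no filter, DESeq2 (1.42.0), limma-voom (limma 3.58.1), limma on log2(TPM + 1) and log2(TPM + 0.1), effective lengths, the block, only the 4 libraries compared, and each library left out.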

Additional observations from a re-analysis of the deposited data

Results flagged for a closer look

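The effects of TP-0903 and of the AXL shRNA, each against its own control, differed for 19 of the 37 tested kinesins by edgeR's interaction test, with values here on the log2 scale as the drug effect minus the shRNA effect. All 12 mitotic kinesins were among them: -3.99 for KIF20A, -3.98 for KIF18B, -3.40 for KIFC1, -3.37 for KIF11, -3.27 for KIF2C, -3.15 for KIF14, -2.94 for KIF15, -2.58 for KIF20B, -2.58 for KIF23, -2.53 for KIF22, -2.50 for KIF4A and -2.41 for KIF18A. In the hairpin arm these genes were low in the control shRNA libraries already.

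Outside the mitotic class, KIF26A differed by -3.46, KIF24 by -1.90 and KIF2A by -0.88. In the other direction KIF9 differed by 1.32, KIF1C by 1.23, KIF3B by 1.19 and KIFC2 by 1.07. The calls of KIF26A and KIF9 were lost without several single libraries (adjusted p up to 0.0623 and 0.0753), and that of KIF24 without the P17 control library (0.0534).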

How the results depend on the processing

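All 12 mitotic kinesins kept their falls with TP-0903 and in the control shRNA cells under every alternative run. Of the called members, 13 of 15 (TP-0903), 12 of 14 (control shRNA), 16 of 19 (difference of effects) and 5 of 14 (AXL shRNA) held in every setting. The remaining shifts were as follows, and their cause was not tested. For the AXL shRNA, 22 members passed with the replicate block and 9 to 13 with a library left out. Mitotic members that rose there numbered 1 with limma-voom, 0 on log2(TPM + 1) and on log2(TPM + 0.1), 2 with effective lengths, 2 with only the 4 libraries and 0 to 3 with a library left out. Transport members that rose there numbered 1 on either TPM scale and 1 to 2 with a library left out. Transport members that rose with TP-0903 numbered 2 with DESeq2, 3 with the block, 0 on either TPM scale, with effective lengths, with only the 4 libraries and with any library left out, and those that fell numbered 2 without the filter, 1 with DESeq2 and 3 with the block. In the control shRNA cells, transport members higher numbered 1 with upper quartile scaling, 2 without the filter, 1 with DESeq2 and 1 with limma-voom, and lower ones 1 without the filter and 1 with DESeq2. For the difference of effects, transport members lower numbered 2 without the filter, 2 with the block and 0 to 1 with a library left out. Signs were compared across settings only for the kinesins named by rule in each comparison. Among these, signs turned only for changes that passed in neither setting: KIF3A in the control shRNA cells (-0.0749 on log2(TPM + 1), -0.0805 on log2(TPM + 0.1), -0.0948 with effective lengths, 0.08 otherwise) and, for the difference of effects, KIF3A (0.0637 and 0.0663 on the TPM scales) and KIF5B (0.0902 and 0.0916). KIF21A was outside that check. With the AXL shRNA its edgeR change was 0.28, yet it stood at 24.4 and 30.3 TPM beside 24.8 and 31.2 TPM with the control shRNA. Apart from the results given beside their blocked values, the block changed no other call of a kinesin. No paired fit was possible for control shRNA against control because they share no P number. KIF2B, KIF4B, KIF6, KIF19 and KIF25 had too few reads to be tested.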
